A study of Mus musculus with 20 samples.

Results

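Hepatokines are proteins that the liver secretes and that act on metabolism in the liver itself and in other tissues. Levels of 6 hepatokine genes, Fgf21, Angptl4, Angptl8, Ahsg, Fetub and Lect2, were followed in mouse liver through trauma, hemorrhagic shock and resuscitation. They were found as the probe sets that the platform annotation gives to these symbols, 7 of 45101 probe sets and 6 of 18193 genes, and all 6 genes were among the 12832 that passed a filter on low values. The samples were whole livers from C57BL/6 males, 8 to 12 weeks old, on 20 Affymetrix Mouse430_2 arrays, which read RNA through cRNA made from oligo-dT primed cDNA. The design text describes anesthetized mice in a model that varies both injury severity and time. In 3 livers the mice had minor trauma, in 4 livers 1.5 h of hemorrhagic shock with severe trauma (here "shock"), in 4 livers the same followed by 1 h of resuscitation, in 4 livers the same followed by 4.5 h of resuscitation, and in 5 livers no manipulation (control). The control mice had neither trauma nor shock, so these cannot be told apart in a comparison of shock with control. What the minor trauma was, when those mice were sampled, and the feeding state and time of day were not stated in the labels. These labels number the arrays as replicates without saying that each came from its own mouse, so p-values measure the spread between these arrays.

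FGF21 is a fasting- and stress-induced hormone that signals through FGF receptors together with the coreceptor beta-Klotho, and its gene is switched on in liver by PPARalpha and by ATF4, the transcription factor of the integrated stress response. ANGPTL4 and ANGPTL8 inhibit lipoprotein lipase, the enzyme that clears triglyceride from blood. Angptl4 is a PPAR target raised by fasting, whereas Angptl8 is raised by feeding and insulin together with the genes of fatty acid synthesis. AHSG (fetuin-A) and FETUB (fetuin-B) are abundant plasma proteins of the cystatin superfamily. Fetuin-A binds calcium phosphate mineral and inhibits the insulin receptor, and fetuin-B protects the egg coat from early hardening. LECT2 is a secreted chemotactic protein that binds the receptor tyrosine kinases MET and TIE1.

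The 250 bases before the annotated start are shown for the 3 genes with called changes between pairs of groups. They are given 5′ to 3′ on the gene's strand from RefSeq (GRCm38.p6), with matches to the searched motifs in capitals. The windows are chr7:45615491-45615740 (minus strand) for Fgf21, chr9:21835260-21835509 (plus strand) for Angptl8 and chr13:56548539-56548788 (minus strand) for Lect2.
Fgf21: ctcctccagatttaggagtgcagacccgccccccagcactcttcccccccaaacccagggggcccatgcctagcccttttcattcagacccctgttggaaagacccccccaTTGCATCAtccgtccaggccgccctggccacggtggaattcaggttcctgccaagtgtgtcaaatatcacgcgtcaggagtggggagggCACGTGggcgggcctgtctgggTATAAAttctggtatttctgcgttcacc
Angptl8: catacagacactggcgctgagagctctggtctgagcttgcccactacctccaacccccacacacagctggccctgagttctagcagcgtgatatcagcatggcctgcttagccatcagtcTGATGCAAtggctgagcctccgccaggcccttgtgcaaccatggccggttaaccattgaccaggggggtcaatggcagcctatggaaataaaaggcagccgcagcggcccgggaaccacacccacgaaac
Lect2: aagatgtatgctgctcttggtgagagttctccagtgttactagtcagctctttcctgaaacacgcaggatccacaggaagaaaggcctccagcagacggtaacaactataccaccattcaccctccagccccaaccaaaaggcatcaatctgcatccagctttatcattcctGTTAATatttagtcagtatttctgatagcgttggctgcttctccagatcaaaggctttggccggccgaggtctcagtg
The motifs searched on both strands were TGATGNAA (the ATF4-C/EBP composite element), CACGTG (E-box), TTCNNNGAA (STAT), GTTAAT (part of the HNF1 site) and TATAAA. They occur in 3.452%, 6.021%, 7.02%, 6.432% and 12.37% of 32851 windows of this length. In the Fgf21 window TGATGNAA matched on the opposite strand, at positions -139 to -132 from the start, ahead of a CACGTG at -50 to -45 and a TATAAA at -28 to -23. The Angptl8 window held TGATGCAA at -130 to -123 on its own strand, and the Lect2 window a GTTAAT at -78 to -73. One of 2 windows for Fetub held TATAAA at -31 to -26 and the Ahsg window held no match. No window was matched for Angptl4. A match describes letters and does not show binding. Ahsg and Fetub are neighbours on chromosome 16 in that assembly, followed by Hrg and Kng2.

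Before the results, some features of the arrays bear on all of them. The deposited signals were not scaled, with array medians of 14.05 to 29.11, so values below are log2(signal + 6) after quantile normalization, on which the median of each array was 4.60. One control array (replicate 5) correlated best with a minor trauma array (r = 0.983). Cyp2b10, a drug-induced P450 gene, read 11.83 on that array, against 11.45 to 12.36 in minor trauma and 3.82 to 6.14 on the other control arrays. It read 8.07 to 9.15 in shock, 8.92 to 10.01 at 1 h and 10.40 to 11.33 at 4.5 h of resuscitation. Control replicate 5 thus goes against its label on this gene. Calls of the 6 genes that change when control replicate 5 alone is left out are given beside them. Of the others, minor trauma replicate 3 had the lowest array weight (0.18). The poly-A spike-in control dap read 329 to 1640 on 10 arrays and 0.876 to 4.91 on the other 10. These "spiked" and "unspiked" arrays number 2 and 1 in minor trauma, 2 and 3 in control, and 2 and 2 in each of the other groups. All 6 hepatocyte markers lay above the array median on every array, while of 4 adipocyte markers on the array Adipoq and Lep did so on none and Fabp4 on all. Fabp4, which macrophages and endothelium also express, was 2.58 higher on the log2 scale at 4.5 h than in control (adjusted p = 6.48e-09). The summed signal of the 4 was 1119 to 1584 at 4.5 h against 175 to 354 in control. At 4.5 h Fabp4 alone of them lay above the array median, and Adipoq, Lep and Retn did so on no array. The summed signal of 8 neutrophil markers was 249 to 541 in minor trauma, 95.7 to 389 in control, 495 to 2250 in shock, 2623 to 4049 at 1 h and 3877 to 4420 at 4.5 h of resuscitation. At 4.5 h S100a8 and S100a9 were 6.09 and 5.80 higher than control, and Csf3r and Ngp 2.30 and 2.26 higher (adjusted p = 1.89e-06 and 2.46e-09). Mpo and Elane changed by 0.03 and 0.39 in that comparison and were not called. The sum of 5 Kupffer cell markers was 703 to 952 at 4.5 h against 1713 to 2754 in control, where Clec4f, Vsig4, Cd5l and Timd4 fell and Marco rose by 1.36 (adjusted p = 0.00408). The sum of 5 endothelial markers was 1104 to 1246 at 4.5 h against 1352 to 1868 in control, where the log2 changes were -2.41 for Kdr, -1.80 for Clec4g, -0.98 for Stab2, 1.77 for Lyve1 and -0.22 for Pecam1, the last not called. The part of these cell types in the results was not tested, and in whole liver fewer cells of a type and less RNA per cell cannot be told apart.

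**Figure D1:**
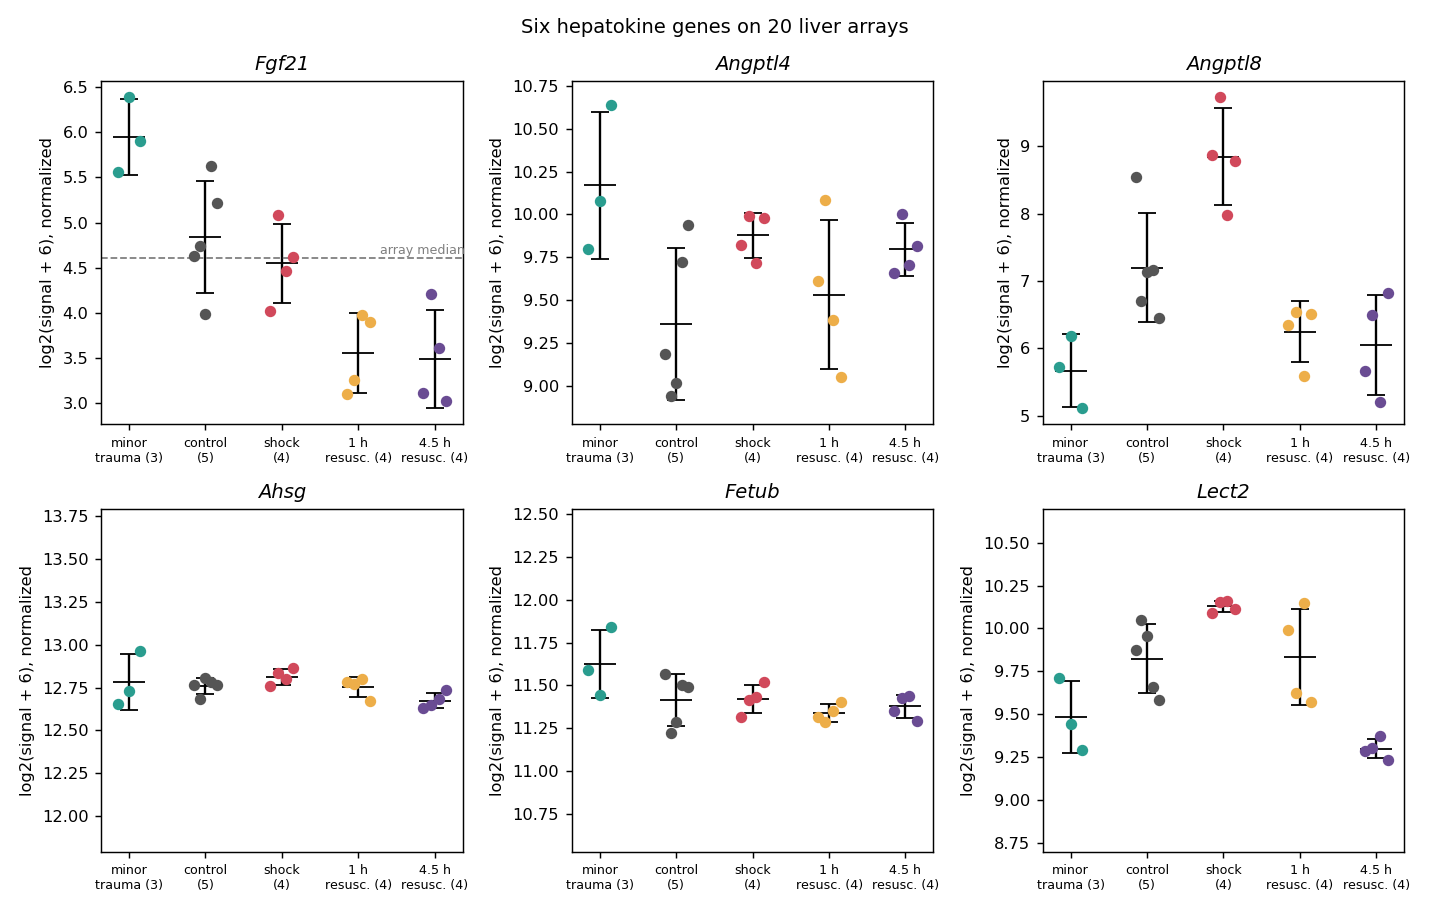
Each panel plots 1 gene, with the level on each array as log2(signal + 6) after quantile normalization on the vertical axis and the 5 groups on the horizontal axis (number of arrays in brackets). Points are arrays, and the black line and bar are the mean and SD. The dashed line in the Fgf21 panel is the array median (4.60), and all resuscitation arrays lie below it.

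Over the 5 groups, 4 of the 6 genes passed the F test at an adjusted p of at most 0.05, against 45.4% of all genes tested. They were Angptl8 (adjusted p = 2.70e-05), Fgf21 (6.91e-05), Lect2 (0.000217) and Angptl4 (0.0399), while Fetub (0.136) and Ahsg (0.391) did not pass. Group means spanned 3.17 for Angptl8, 0.83 for Lect2 and 0.81 for Angptl4 on the log2 scale, while the span for Fgf21 reaches below the array median and has no exact size. A gene is called below when it passed limma's test with Benjamini-Hochberg adjustment over the 12832 genes. Against control, 0 of the 6 were called after minor trauma, 1 after shock, 1 at 1 h and 3 at 4.5 h of resuscitation. Of all genes 3.44%, 3.11%, 9.91% and 38.9% were called in these comparisons, so a count of 3 in 6 genes at 4.5 h is near the background. Called changes in the direction of the called hepatokine genes made up 2.03% (higher in shock), 5.31% (lower at 1 h) and 23.8% (lower at 4.5 h) of all genes. At an unadjusted p under 0.05 in limma, 5 of the 6 genes and 21.3% of all genes passed in the comparison of minor trauma with control. With median centring of the arrays in place of quantile normalization 2 of the 6 were called there, beside 725 of all genes in place of 441. The median change of the 6 genes against control was 0.12 for minor trauma, 0.18 for shock, -0.04 for 1 h and -0.30 for 4.5 h.

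Between the injured groups, 3 of the 6 genes were called in shock against minor trauma, 2 higher and 1 lower, where 9.55% of all genes were called, 4.18% higher and 5.38% lower. From shock to 1 h of resuscitation 1 gene was called, where 1.25% of all were (0.374% lower), and from 1 h to 4.5 h 1 gene, where 33.1% were (18.2% lower). In pairs added after the data were seen, 1 gene was called lower at 1 h than in minor trauma (12.2% of all genes called, 7.39% lower). Likewise 1 was lower at 4.5 h than in minor trauma (29.3% called, 18.6% lower), and 3 were lower at 4.5 h than in shock (37.4% called, 21.6% lower). Arrays of the groups did not overlap for 1 gene each in minor trauma against control (7.33% of all genes) and at 4.5 h against 1 h (34.6%). They did not overlap for 2 genes at 1 h against shock (9.8%), 2 at 1 h against minor trauma (21.2%), 2 at 4.5 h against minor trauma (31.7%) and 3 at 4.5 h against shock (40.4%).

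**Figure D2:**
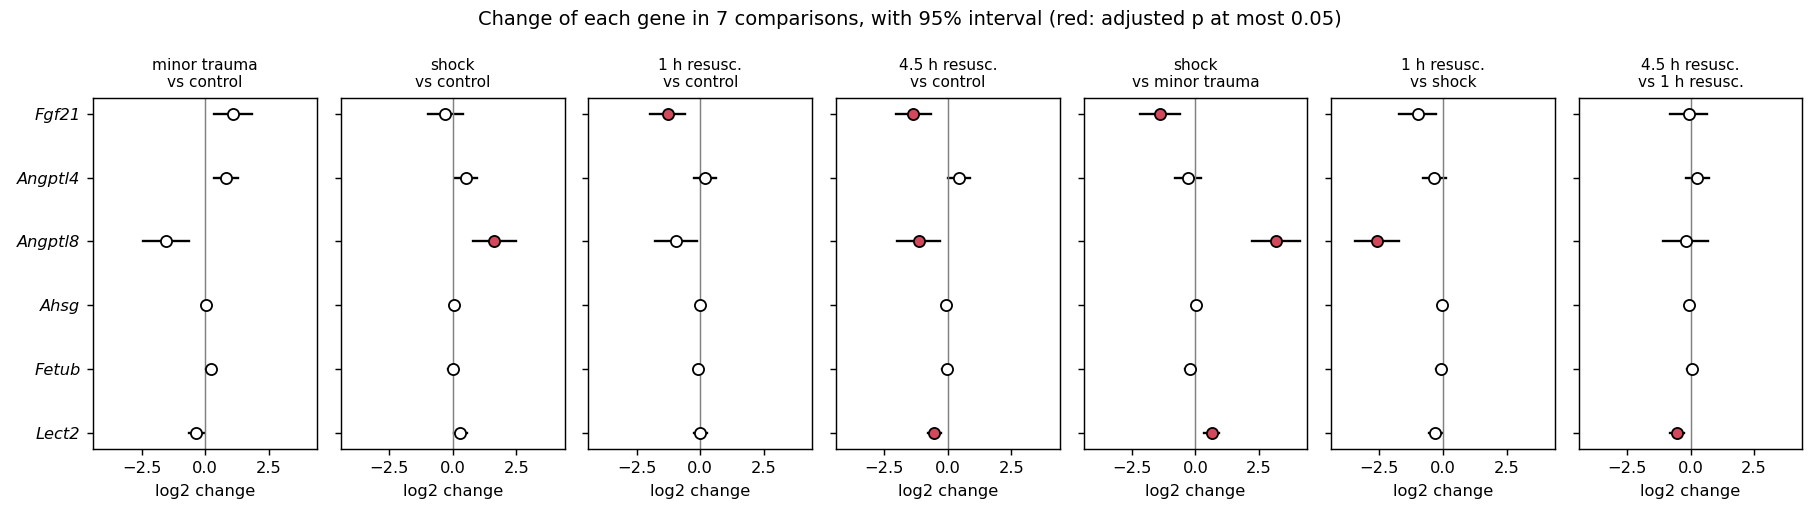
Points show the log2 change of each gene in 7 comparisons, the first named group minus the second, and lines the 95% interval from the limma fit. Red points were called. Angptl8 is highest in shock against minor trauma (3.17) and the fetuins lie near 0 in all panels.

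Fgf21, read by probe set 1422916_at, had its lowest mean after resuscitation and its highest after minor trauma. The minor trauma arrays read 5.56, 6.40 and 5.90, against 4.63, 4.74, 3.98, 5.62 and 5.22 on the control arrays. The shock arrays read 4.02, 5.08, 4.47 and 4.62, the 1 h arrays 3.10, 3.26, 3.97 and 3.90, and the 4.5 h arrays 3.11, 4.21, 3.61 and 3.02. No resuscitation array lay above its array median, while 3 of 3 minor trauma arrays, 2 of 4 shock arrays and 4 of 5 control arrays did. On the deposited scale this is a signal of 2.62 to 9.98 at 1 h and 2.03 to 10.2 at 4.5 h, against 10.3 to 41.0 in control.

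Fgf21 averaged 3.56 ± 0.44 at 1 h of resuscitation (SD, n = 4), against 4.84 ± 0.62 in control (SD, n = 5), a log2 change of -1.28 ± 0.33 (SE, adjusted p = 0.0139). The highest 1 h array (3.97) and the lowest control array (3.98) nearly met without overlapping, and the genes without overlap made up 12.1% of all tested. At 4.5 h Fgf21 averaged 3.49 ± 0.55 (SD, n = 4), a change from control of -1.35 ± 0.33 (SE, adjusted p = 0.0024), and these groups overlapped. Because the resuscitation arrays lay below the median, both changes are bounds, at least 1.18-fold lower than control in each case. Within the spiked arrays alone the changes from control were -1.49 at 1 h (adjusted p = 0.135) and -1.45 at 4.5 h (0.0510), and within the unspiked arrays -1.17 (0.287) and -1.37 (0.0629). The call at 1 h was lost without 1 h replicate 1 (adjusted p = 0.0517) or 1 h replicate 2 (0.0515), with changes of -1.13 and -1.18.

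Shock itself did not separate Fgf21 from control. The mean was 4.55 ± 0.44 in shock (SD, n = 4), a change of -0.29 ± 0.33 (SE, adjusted p = 0.779), with a 95% interval of -0.98 to 0.39. Against minor trauma, where the mean was 5.95 ± 0.42 (SD, n = 3), shock livers were lower by 1.40 ± 0.37 on the log2 scale (SE; log2 change -1.40, adjusted p = 0.0213), and the arrays did not overlap. That call was lost without minor trauma replicate 2 (adjusted p = 0.0749), minor trauma replicate 3 (0.0622) or shock replicate 1 (0.0678), and the change was -0.92 within the spiked arrays (adjusted p = 0.301) and -2.13 within the unspiked arrays (0.346), where minor trauma is 1 array. Minor trauma minus control gave 1.11 ± 0.36 (SE, adjusted p = 0.0835), with an interval of 0.36 to 1.86, and without control replicate 5 it was called (1.20, adjusted p = 0.0499). In the added pairs, Fgf21 was at least 2.54-fold lower than in minor trauma at 1 h (log2 change -2.39, adjusted p = 0.000285) and at 4.5 h (-2.46, adjusted p = 4.48e-05). Down the order of means, minor trauma, control, shock, 1 h and 4.5 h, no pair of neighbours differed beyond its spread by this test.

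Among the 5 listed genes for FGF receptors and beta-Klotho, none was called after minor trauma, shock or 1 h of resuscitation against control. At 4.5 h, 3 fell and 1 rose, and the median log2 change was -0.89, against -0.09 over all genes tested. Of all genes 38.9% were called in that comparison, 23.8% lower. Klb, which encodes beta-Klotho, fell 2.48-fold (mean level 6.33 at 4.5 h and 7.64 in control; adjusted p = 9.72e-06), and its arrays did not overlap. Fgfr3 and Fgfr4, FGF receptor genes, fell 1.88-fold and 1.85-fold, whereas Fgfr1 rose 1.68-fold (adjusted p = 0.00819). Shock livers had more Klb than minor trauma livers (8.27 against 7.09, log2 change 1.17, adjusted p = 0.00184). Fgfr4 was also called higher there (log2 change 0.65, adjusted p = 0.0329), which made 2 of the 5. Of all genes 9.55% were called in that comparison, 4.18% higher.

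Some targets of the integrated stress response, which includes ATF4 as an activator of Fgf21, were called in shock and after it. Of 11 tested, 4 rose and none fell in shock against control, 5 rose and none fell at 1 h, and 6 rose and 1 fell at 4.5 h, with median log2 changes of 0.55, 0.73 and 0.90. Of those not called in shock, Asns, the asparagine synthetase gene, changed by -0.25 and Atf5 by -0.35. Over all genes the medians in these comparisons were -0.03, -0.07 and -0.09, and 3.11%, 9.91% and 38.9% were called. Atf3, a stress-induced repressor and activator of the ATF family, rose 39.5-fold in shock (9.75 ± 0.51 in shock and 4.45 ± 0.40 in control; adjusted p = 1.25e-11). Ppp1r15a, whose product reverses the phosphorylation of eIF2alpha, rose 3.84-fold, the glutathione-degrading Chac1 2.95-fold and the pseudokinase Trib3 1.97-fold. Control levels of Atf3 lay above the array median on 1 of 5 arrays, as did those of Nupr1, and those of Psat1 on 2 of 5, so the sizes of their changes rest on weak control signals. At 4.5 h the stress protein gene Nupr1 rose 4.22-fold, Atf3 3.56-fold, Ddit3, which encodes CHOP, 2.45-fold and the serine synthesis gene Psat1 2.36-fold. Atf5, another ATF family gene, was the 1 that fell (-0.63, adjusted p = 0.00511).

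Of 10 genes for regulators of Fgf21 and Angptl4, 2 rose and 5 fell at 4.5 h against control. Of all genes 38.9% were called there, 23.8% lower. Hif1a, the hypoxia-inducible factor gene, rose 3.12-fold and Atf4 1.91-fold. The bile acid receptor gene Nr1h4 fell 2.97-fold, the coactivator gene Ppargc1a 2.73-fold and Ppara itself by 0.70 on the log2 scale (log2 change -0.70, adjusted p = 0.000346). In shock Ppara was the 1 of 10 called, 1.44-fold lower than control (adjusted p = 0.0357), where 3.11% of all genes were called. Minor trauma raised Atf4 (0.69, adjusted p = 0.0219) and Creb3l3 (0.64, 0.031), a liver CREB family gene, against control. Nr3c1, the glucocorticoid receptor gene, and Ppargc1a were lower there (-1.04 and -1.02).

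Angptl4, read by probe set 1417130_s_at, ranged from 8.94 to 10.64, and no pair of groups passed. The minor trauma arrays read 9.80, 10.08 and 10.64, against 9.19, 8.94, 9.02, 9.72 and 9.94 on the control arrays. The shock arrays read 9.82, 9.99, 9.72 and 9.98, the 1 h arrays 9.61, 10.08, 9.39 and 9.05, and the 4.5 h arrays 9.66, 10.004, 9.70 and 9.82. Control arrays held both low values, on replicates 1 to 3, and values inside the range of the other groups, on replicates 4 and 5. Minor trauma minus control was 0.81 ± 0.23 (SE, adjusted p = 0.0535), with an interval of 0.33 to 1.29, shock minus control 0.52 ± 0.21 (0.241) and 4.5 h minus control 0.44 ± 0.21 (0.109). Without control replicate 5 the first was called (0.95, adjusted p = 0.00793), as was the change at 4.5 h (0.58, adjusted p = 0.0263). In 20 fits with 1 array left out, calls numbered 5 for minor trauma minus control, 1 for 4.5 h minus control and 0 for shock minus control. In 15 other settings they numbered 2, 3 and 2. For 1 h against minor trauma, 2 of the 20 fits and 0 of the 15 settings gave a call. A second Angptl4 probe set, 1453410_at, lay below the array median on all 20 arrays and did not stand for the gene. Its means were 4.17 ± 0.09 at 4.5 h and 3.47 ± 0.18 in control (SD). In a fit over all 34945 probe sets with 1 gene it was higher at 4.5 h than in control (0.70, adjusted p = 0.0113) and than at 1 h (0.83, 0.0059), without overlap and with both groups below the median.

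The PPARalpha targets, a set that includes fasting-induced genes of fatty acid use, were matched for 10 of 14 listed genes. Pdk4, which brakes glucose oxidation, rose 5.53-fold in shock against control (8.32 ± 0.55 in shock and 5.85 ± 0.75 in control, adjusted p = 0.00121). It was the only call of the 10, where 3.11% of all genes were called, and the median was -0.27. In minor trauma against control none was called, the median was 0.58 and Pdk4 changed by 1.43 (adjusted p = 0.0855). In shock against minor trauma the median was -0.63, where 9.55% of all genes were called. Called lower there were Cpt1a, the gate of mitochondrial fatty acid import (-1.04, adjusted p = 0.00144), and Plin2 (-0.93, 0.00887). Pdk4 was not called there (1.04, adjusted p = 0.179). At 4.5 h Pdk4 was 4.53-fold higher than control, while Cd36, a fatty acid transporter gene, fell 1.86-fold, Cpt1a 1.52-fold and Hadha, a beta-oxidation subunit gene, 1.31-fold. That made 1 of the 10 higher and 3 lower, where 38.9% of all genes were called, 23.8% lower. Of 9 genes of lipoprotein lipase control, none was called in shock and 2 fell at 4.5 h. These were Gpihbp1, whose product carries the lipase to the capillary wall (1.83-fold), and Angptl6 (1.69-fold). Of the endothelial markers Kdr, Clec4g and Stab2 fell and Lyve1 rose in the same comparison, and their part in these changes was not tested. Among 4 other angiopoietin-like and angiopoietin genes tested, Angpt2, an endothelial TIE2 ligand gene, rose 2.15-fold at 4.5 h against control.

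Angptl8, read by probe set 1427422_at, changed most of the 6 genes. In minor trauma livers it read 5.72, 6.18 and 5.11, against 8.54, 6.70, 7.14, 7.16 and 6.46 in control livers. The shock arrays read 8.87, 9.74, 7.97 and 8.79, the 1 h arrays 6.34, 6.54, 5.58 and 6.51, and the 4.5 h arrays 5.66, 6.50, 5.21 and 6.82. Shock arrays were all above those of every other group except control replicate 1, at 8.54, which overlapped them. All 20 arrays lay above the array median.

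In shock Angptl8 averaged 8.84 ± 0.72 (SD, n = 4), against 7.20 ± 0.81 in control (SD, n = 5), a 3.12-fold rise with a 95% interval of 1.76 to 5.56 (log2 change 1.64 ± 0.40, SE, adjusted p = 0.0226). It was the 1 of the 6 genes called higher, beside 2.03% of all genes. The call was lost without control replicate 2 (1.52, adjusted p = 0.0606), control replicate 5 (1.46, 0.0501), shock replicate 1 (1.63, 0.0624) or shock replicate 2 (1.35, 0.119). Within the spiked arrays the change was 1.93 (adjusted p = 0.176) and within the unspiked arrays 1.45 (0.531). Against minor trauma, where Angptl8 averaged 5.67 ± 0.54 (SD, n = 3), shock livers were 9.01-fold higher (log2 change 3.17 ± 0.45, SE, adjusted p = 0.000298). Here the arrays did not overlap, as for 3 of the 6 genes and for 22.7% of all genes, and only 7 of the 12832 genes had a larger rise. This change was 3.43 in the spiked arrays (adjusted p = 0.0128) and 2.65 in the unspiked arrays (0.330), where minor trauma is 1 array and 3 of all genes were called.

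After 1 h of resuscitation Angptl8 averaged 6.25 ± 0.45 (SD, n = 4), 6.05-fold lower than in shock (log2 change -2.60 ± 0.42, SE, adjusted p = 0.00178). Of the 12832 genes 1 other had a larger fall. The arrays did not overlap, and leaving out any 1 array kept the call. The changes were -2.79 in the spiked arrays (adjusted p = 0.0653) and -2.40 in the unspiked arrays (0.461). At 4.5 h it averaged 6.05 ± 0.74 (SD, n = 4), and the change from 1 h was -0.20 ± 0.42 (SE, adjusted p = 0.763). Against control the 4.5 h change was -1.15 ± 0.40 (SE, adjusted p = 0.0265, 2.22-fold lower) with overlapping arrays, and the 1 h change -0.95 ± 0.40 (0.152). The call at 4.5 h was lost without control replicate 1 (-0.82, adjusted p = 0.0852), 4.5 h replicate 1 (-1.03, 0.0787) or 4.5 h replicate 3 (-0.87, 0.115). Within the spiked arrays it was -0.84 (adjusted p = 0.306) and within the unspiked arrays -1.37 (0.114). Minor trauma minus control was -1.53 ± 0.43 (SE, adjusted p = 0.0550), without overlap, and it was called without control replicate 5 (-1.71, adjusted p = 0.0172). Down the order shock, control, 1 h, 4.5 h and minor trauma, only shock and control differed as neighbours.

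The lipogenic genes that are regulated with Angptl8 in feeding were matched for 12 of 13. In shock 3 rose and none fell against control, with a median of 0.19, where 3.11% of all genes were called. Fasn, which encodes fatty acid synthase, rose 3.08-fold (adjusted p = 0.00219) and Srebf1, the insulin-responsive regulator of lipogenesis, 3.01-fold (0.00118). Thrsp, a lipogenic nuclear protein gene, rose 2.66-fold (0.0223). Against minor trauma 1 of the 12 was called in shock, where 9.55% of all genes were called, and the median was -0.05. It was Srebf1 (log2 change 1.72, adjusted p = 0.00195), while Fasn was not called (1.00, 0.0644). Thrsp averaged 12.72 in shock and 12.71 in minor trauma. From shock to 1 h of resuscitation 0 of the 12 were called, by limma, where 1.25% of all genes were, while Angptl8 fell. Srebf1 averaged 10.36 ± 0.62 at 1 h and 10.70 ± 0.46 in shock (SD, n = 4 each; log2 change -0.33, adjusted p = 0.794). Fasn averaged 10.85 ± 0.63 at 1 h and 10.99 ± 0.33 in shock (change -0.14, adjusted p = 0.950). At 4.5 h against control 5 of the 12 fell and none rose, where 38.9% of all genes were called, 23.8% lower. Among the 5 were Acly (2.24-fold), which supplies cytosolic acetyl-CoA, Srebf1 (1.95-fold), the LXRalpha gene Nr1h3 (1.72-fold) and the malic enzyme gene Me1 (1.47-fold). The difference between Angptl8 and these genes in their changes was not tested.

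**Figure D3:**
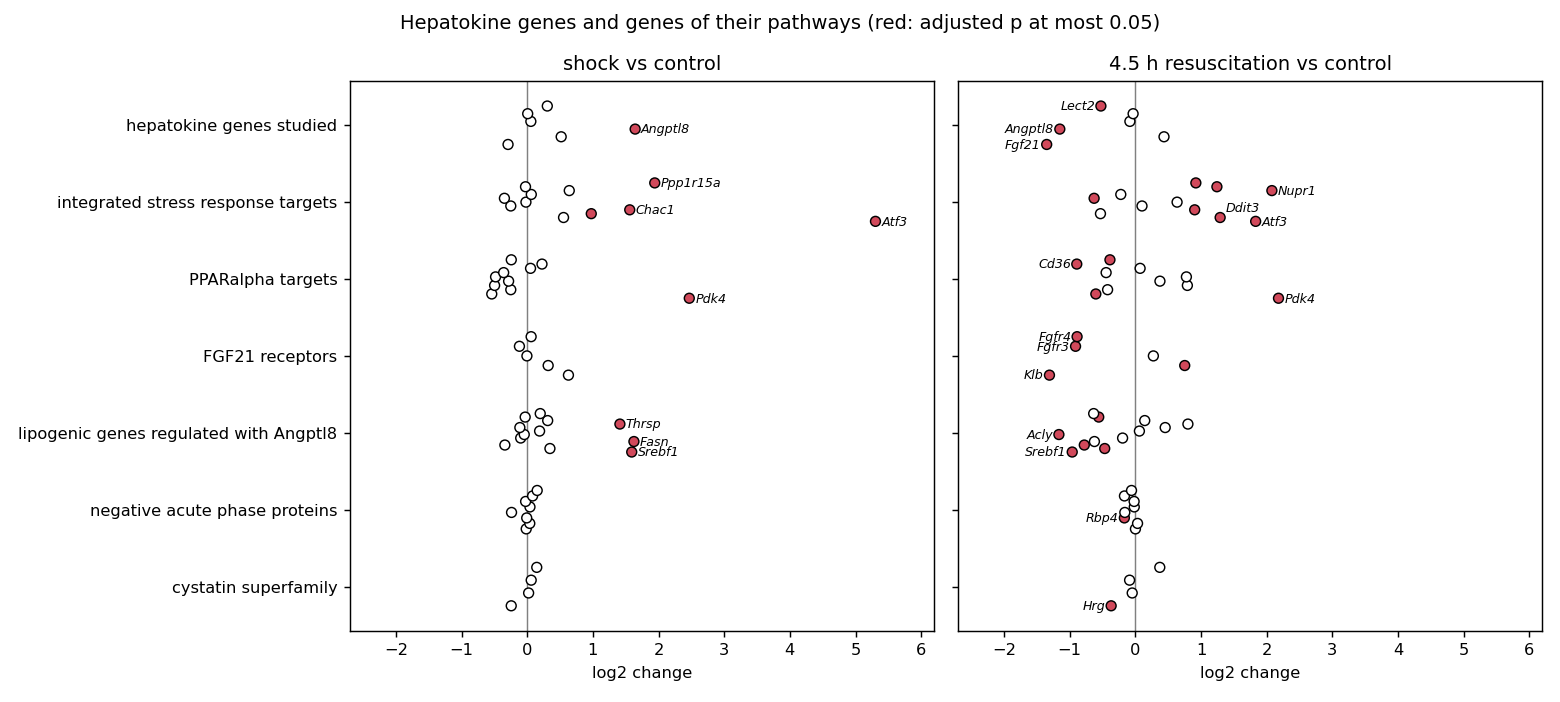
Points are genes, with the log2 change from control on the horizontal axis and gene groups down the page, for shock (left) and 4.5 h of resuscitation (right). Red points were called, and up to 3 called genes per group are named. Angptl8, Fasn and Srebf1 lie between 1.59 and 1.64 in shock, and Fgf21 lies at -1.35 at 4.5 h beside Nupr1 at 2.08.

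Ahsg and Fetub, read by probe sets 1455093_a_at and 1449555_a_at, had no called change between any pair of groups. Ahsg read 12.66 to 12.96 in minor trauma, 12.68 to 12.80 in control, 12.76 to 12.86 in shock, 12.67 to 12.80 at 1 h and 12.63 to 12.74 at 4.5 h. Its group means spanned 0.14 on the log2 scale. For Ahsg the change from control was 0.02 in minor trauma (95% interval -0.11 to 0.16), 0.05 in shock (-0.07 to 0.18), 0.00 at 1 h (-0.13 to 0.12) and -0.08 at 4.5 h (-0.21 to 0.04). The outermost of these bounds corresponds to a level 0.865 times that of control. Saturation marks were not used here, so whether so bright a probe set could register a rise was not tested.

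Fetub read 11.45 to 11.84 in minor trauma, 11.22 to 11.57 in control, 11.32 to 11.52 in shock, 11.28 to 11.41 at 1 h and 11.29 to 11.44 at 4.5 h. Its changes from control were 0.21 in minor trauma (interval 0.02 to 0.41, adjusted p = 0.196), 0.01 in shock (-0.17 to 0.19), -0.07 at 1 h (-0.25 to 0.11) and -0.04 at 4.5 h (-0.21 to 0.14). The signs of several of these small changes turned when arrays were scaled by their median or trimmed mean. At 4.5 h against minor trauma Fetub was called with median centring (-0.54, adjusted p = 0.0118) and without minor trauma replicate 2 (-0.34, 0.0189), and at 1 h against minor trauma without that array (-0.38, 0.0222). At 4.5 h against shock Ahsg was called with array weights (-0.14, adjusted p = 0.0303), without minor trauma replicate 3 (-0.14, 0.0264), without that array and control replicate 5 together (-0.14, 0.0287) and with only those groups in the fit (-0.14, 0.0198). Of 4 other cystatin superfamily genes tested, Hrg, which encodes a plasma glycoprotein made from the neighbouring locus, fell 1.29-fold at 4.5 h against control (adjusted p = 0.0062). Kng1, the kininogen gene, averaged 12.54 ± 0.06 at 4.5 h and 12.59 ± 0.06 in control. Of 8 genes for other plasma proteins known to fall in an acute phase response, 1 was called at 4.5 h, Rbp4, the retinol carrier gene (1.12-fold lower). Of all genes 38.9% were called in that comparison with control. Alb and Ttr averaged 13.21 and 13.22 at 4.5 h, against 13.21 and 13.19 in control. These levels lay above those of Ahsg, and whether such bright probe sets could register a change was not tested.

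Lect2, read by probe set 1449492_a_at, was highest in shock and lowest at 4.5 h of resuscitation. In minor trauma it read 9.71, 9.44 and 9.29, against 9.88, 10.05, 9.96, 9.66 and 9.58 in control. The shock arrays read 10.09, 10.16, 10.16 and 10.11, the 1 h arrays 9.99, 9.62, 10.15 and 9.57, and the 4.5 h arrays 9.29, 9.30, 9.37 and 9.23. All shock arrays lay above all control arrays and all 4.5 h arrays below them, with little spread within either group.

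At 4.5 h Lect2 averaged 9.30 ± 0.06 (SD, n = 4), against 9.82 ± 0.20 in control (SD, n = 5), 1.44-fold lower (log2 change -0.53 ± 0.12, SE, adjusted p = 0.00172). No overlap was seen for 30.8% of all genes in this comparison, and 23.8% were called lower. From 1 h, where the mean was 9.83 ± 0.28 (SD, n = 4), the change was -0.53 ± 0.13 (SE, adjusted p = 0.00307), and from shock, in a comparison added later, -0.83 ± 0.13 (adjusted p = 3.52e-05, 1.78-fold lower). Shock livers, at 10.13 ± 0.03 (SD, n = 4), were 1.57-fold higher than minor trauma livers, at 9.48 ± 0.21 (SD, n = 3; log2 change 0.65 ± 0.14, adjusted p = 0.00636). The Lect2 change in shock against control was 0.31 ± 0.12 (adjusted p = 0.234) although the arrays did not overlap, as for 7.68% of all genes. Each of these calls held with any 1 array left out. The call in shock against minor trauma was lost on the values as deposited (0.41, adjusted p = 0.540), within the spiked arrays (0.66, 0.157) and within the unspiked arrays (0.65, 0.382). On the values as deposited, where the median gene moved by -0.27 at 4.5 h against control, the Lect2 change was -0.68 (adjusted p = 0.0556), and against 1 h it was -0.74 (0.0692). Within the spiked arrays the 4.5 h change from control was -0.56 (adjusted p = 0.104) and within the unspiked arrays -0.50 (0.0495). Down the order shock, 1 h, control, minor trauma and 4.5 h, no neighbours differed beyond their spread.

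Of the 3 genes for LECT2 binding partners, Met, the hepatocyte growth factor receptor gene, fell at 1 h (-0.55, adjusted p = 0.0334) and 2.05-fold at 4.5 h against control. Met averaged 7.67 ± 0.10 at 4.5 h and 8.71 ± 0.07 in control, without overlap. Among 19 other hepatokine genes tested, 1 rose and 1 fell in shock against control, and 4 rose and 9 fell at 4.5 h. Of all genes 3.11% and 38.9% were called in these comparisons, and 23.8% were called lower at 4.5 h. Igfbp1, which encodes a binding protein for insulin-like growth factors, rose 5.78-fold in shock and 5.13-fold at 4.5 h. Inhbe, the inhibin beta E gene, fell 4.79-fold and 5.96-fold, and Enho, which encodes adropin, fell 3.64-fold at 4.5 h. Inhbe was higher in minor trauma than in control (8.20 against 7.29, log2 change 0.91, adjusted p = 0.0418). Igfbp1 was higher there too (log2 change 1.33, adjusted p = 0.0449), with overlapping arrays. Enho was lower there (5.33 against 6.88, change -1.55, adjusted p = 0.037).

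The genes whose levels ran most like each hepatokine gene were found by Pearson correlation over the 20 arrays among 12158 named genes. They describe these arrays, which share their group differences, and carry no test. For Fgf21 they were Dffa (r = 0.847), Klf1 (0.832) and Nr1h4 (0.832), the last already described as falling at 4.5 h. Angptl8 ran most like Nr0b2 (0.801), which encodes the orphan receptor SHP, then Gpatch8 (0.780) and Cdpf1 (0.770). Nr0b2 averaged 7.60 in minor trauma, 8.56 in control, 9.65 in shock, 8.06 at 1 h and 8.33 at 4.5 h. Lect2 had the closest likeness, with Pyurf (0.949), Aasdhppt (0.913) and Akr1c6 (0.909). For Angptl4 the likest were Tm2d1 (0.866), Eci2 (0.853), a beta-oxidation enzyme gene, and Fhad1 (0.848). For Ahsg they were Cpq (0.865), Tspan3 (0.861) and Sypl (0.836), and for Fetub Ddx56 (0.868), Tsnax (0.862) and Chpf2 (0.855).

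**Figure D4:**
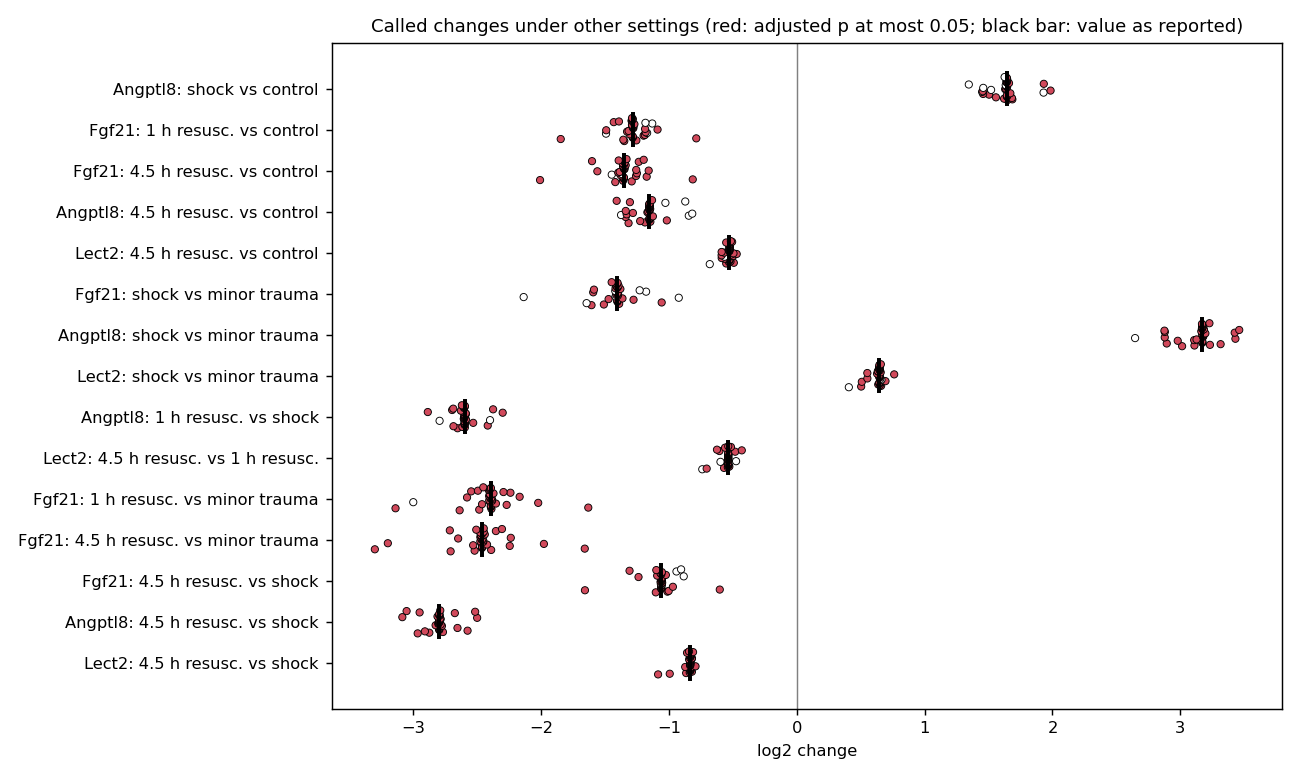
Rows are the changes called between groups, with the log2 change on the horizontal axis. The black bar is the value as reported and points are the values under other settings, red where called. No point crosses 0, while several changes of Fgf21, Angptl8 and Lect2 hold open points.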

How the data were processed

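Whole liver RNA of 20 arrays in 5 groups was analysed. The deposited values are intensity on a linear scale without scaling between arrays, and MAS5 is the tool that the submitters' processing notes name. Its version is not stated there. A pseudocount of 6 was added, log2 taken and arrays quantile normalized, so fold changes of low genes are understated. Of 45101 probe sets, 34945 had 1 gene in the platform annotation, 932 several, 9160 none and 64 were controls. Probe sets above their array's median on at least 3 arrays were kept, and the one with the highest mean stood for its gene (12832 genes tested, 5361 not).

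One limma fit (3.58.1, R 4.3.3, with the data.table package at version 1.17.8) of 5 group means with an intensity trend gave 7 comparisons and the F test, adjusted by Benjamini and Hochberg over all genes tested. The fit was tested on simulated data. Another 3 pairs of groups were added after the data were seen. Where every array of the lower group lay at or below its median, the fold is a bound, with the lower group set at the median. Fold intervals are at 95%, and the number of arrays limits the precision. The members and gene lists were chosen with earlier results of these data known, and up to 4 called genes per list, by size of change in shock or at 4.5 h against control, were named with values; further list genes were named after their values were seen. Some genes of the lists are not reported here. Promoter windows came from RefSeq (GRCm38.p6). Replicate numbers were not used as pairs in the main fit. Deviations from group means of same-numbered arrays correlated at -0.076 to 0.165 in 36 pairs, with a median of 0.0037. Those of differently numbered arrays correlated at -0.173 to 0.154 in 123 pairs, with a median of -0.0036. Such correlations over all genes cannot exclude a pairing, so the replicate number as a block is among the alternatives. Alternatives were other scalings, pseudocounts, filters, weights, blocks and arrays left out. Another array platform of the study was not analysed here. Figures used python 3.11.15, matplotlib 3.10.9, numpy 2.4.6 and pandas 2.3.3.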

Additional observations from a re-analysis of the deposited data

Results flagged for a closer look

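The effects of 2 groups, each set against control, differed by the test of their difference in 10 results, with limma and Benjamini-Hochberg adjustment. For Angptl8 the effect of 1 h of resuscitation was lower than that of shock (log2 difference -2.60), that of 4.5 h lower than that of shock (-2.80), and that of shock higher than that of minor trauma (3.17). For Lect2 the 4.5 h effect was lower than the 1 h effect (-0.53) and the shock effect (-0.83), and the shock effect was higher than that of minor trauma (0.65). For Fgf21 the difference between the 4.5 h and shock effects was -1.06, and those of shock, 1 h and 4.5 h from minor trauma were -1.40, -2.39 and -2.46. No Fgf21 value at 1 h or 4.5 h lay above its array median, so these sizes rest on values not above it: the last pair are bounds of at least 2.54-fold each, and the 4.5 h to shock pair, with 2 of 4 shock arrays above the median, allows no fold. These effects share the control arrays, which cancel in the difference. The 4.5 h to shock pair and the resuscitation to minor trauma pairs were added after the data were seen. In 24 sets of values of 1 gene in 1 group of 4 or 5 arrays, no array lay far from the rest by Dixon's test, where chance would flag 1.2.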

How the results depend on the processing

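No called change reversed its sign under any setting run, and each of the 15 called changes kept its sign in 34 or 35 settings. Counts of the 6 genes called did vary. With 1 array left out at a time they ran from 0 to 3 in minor trauma against control and 0 to 1 in shock against control. At 1 h they ran from 0 to 1 against control and 1 to 2 against minor trauma. At 4.5 h they ran from 2 to 4 against control, 1 to 2 against minor trauma and 2 to 4 against shock. The counts were 2 to 3 in shock against minor trauma and 3 to 4 in the F test. In minor trauma against control the count was 2 with median centring (725 of all genes called), 1 with trimmed-mean scaling (460), 1 with a pseudocount of 18 (444), 1 with array weights (650) and 0 as reported (441). In shock against control it was 2 with array weights (758 of all genes called), 2 without control replicate 5 and minor trauma replicate 3 together (711), 0 with only those groups in the fit (358) and 1 as reported (399). It was 0 at 4.5 h against 1 h on the values as deposited, and 3 at 4.5 h against minor trauma with median centring (4505 of all genes, against 3766 as reported). With the replicate number as a block, 4 genes were called in minor trauma against control (1143 of all genes, against 441 without the block), 2 at 1 h against control, and the calls of no other comparison moved by over 1.5 times. Within the spiked arrays alone the counts against control were 0 after shock, 0 after 1 h and 0 after 4.5 h. They were 1 in shock against minor trauma, 0 at 1 h against shock, 0 at 4.5 h against 1 h and 2 in the F test. Within the unspiked arrays they were 0, 0 and 1 against control, 0 in shock against minor trauma, 0 at 1 h against shock, 0 at 4.5 h against 1 h, 0 at 1 h against minor trauma and 1 in the F test. These fits hold 10 arrays each, with 1 minor trauma array among the unspiked. The spike-in set as a block kept every count between groups and called 3 genes in the F test. Fgf21 at 4.5 h against shock was not called without shock replicate 2, 4.5 h replicate 1 or 4.5 h replicate 4 (changes of -0.88, -0.94 and -0.90), and Fgf21 in shock against minor trauma was not called with a pseudocount of 1 (-1.64). For Fgf21, signals near the background limit what can be read after resuscitation. For all else whose call changed, the cause was not tested.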

Other observations

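Some genes of the lists were called in minor trauma, where none of the 6 hepatokine genes was called. Chac1 averaged 8.12 ± 0.51 there, against 6.53 ± 0.64 in control (log2 change 1.59, adjusted p = 0.021), and Thrsp 12.71 ± 0.08, against 11.31 ± 1.11 in control (1.41, adjusted p = 0.0424). Lcn2, an iron-trapping acute phase gene, averaged 12.14 ± 0.67 in minor trauma, against 7.68 ± 2.36 in control, and 12.98 ± 0.08 at 4.5 h of resuscitation. Its control arrays ranged from 6.15 to 11.78 and overlapped those of minor trauma, as did those of Thrsp. Ppargc1a, the coactivator gene, was 1.00 higher on the log2 scale at 1 h than in control (adjusted p = 0.0106), and at 4.5 h it was lower than at 1 h (-2.45, adjusted p = 4.1e-07).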
